A study of Mus musculus with 6 samples.

Results

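The 10 genes described here encode the core of extracellular TGF-beta signalling: the ligands Tgfb1, Tgfb2 and Tgfb3, the receptors Tgfbr1, Tgfbr2 and Tgfbr3, and the latent binding proteins Ltbp1, Ltbp2, Ltbp3 and Ltbp4. They were taken by gene name from a table of 28510 genes, each name matched 1 row, and all 10 passed the filter on low counts. RNA was measured in tibialis anterior, the muscle at the front of the shin, from C57BL/6 mice aged 12 months. The 3 KO samples had the genotype H2A-Z.1-/- and H2A-Z.2-/- with HSA Cre+, so that both genes for the histone variant H2A.Z were deleted. The 3 WT samples carried flox/flox alleles of both genes and were labelled HSA Cre WT. HSA is the human skeletal actin promoter, which drives Cre in muscle fibres, whereas the RNA came from whole muscle, which also holds fibroblasts, macrophages, endothelial cells and nerve. The question was how the loss of H2A.Z changes transcription.

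TGF-beta is secreted in a latent form. The ligand is cut by a convertase but stays wrapped in its own propeptide, and most of it is tied through a latent binding protein to fibrillin and other fibres of the matrix, from which integrins, thrombospondin or proteases release it. Free ligand brings together the type II and type I receptors, which phosphorylate Smad2 and Smad3, and these enter the nucleus with Smad4. In skeletal muscle the pathway is known for restraining the differentiation of myoblasts and for driving fibroblasts to lay down matrix.

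Total counts were 62318774 to 102919416 per KO library and 35456883 to 88477775 per WT library, and mitochondrial genes took 21.7% to 32.1% of them in KO and 19.9% to 25.5% in WT. Both deleted genes were low in KO, H2afz at 4.60 ± 0.514 CPM (counts relative to the size of the library, after TMM scaling) in KO and 16.5 ± 1.75 CPM in WT, and H2afv at 4.14 ± 0.405 CPM in KO and 18.6 ± 2.42 CPM in WT (SD, n = 3 each). Fibre markers fit the labelled tissue: the 10 genes listed for fibres, among them Ckm and Ttn, summed to 156813 to 199708 CPM in KO and 234766 to 254649 CPM in WT. A gene is said below to have risen or fallen only where the adjusted p of edgeR's quasi-likelihood test, by Benjamini-Hochberg over all 16628 genes tested, was under 0.05.

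Of the 10 genes, 3 rose in KO muscle and 0 fell: the ligand gene Tgfb1, the type II receptor gene Tgfbr2 and the latent binding protein gene Ltbp1, 1 from each class. Among tested genes 13.5% rose, 12.4% fell and 25.9% did either, so the 3 calls among 10 genes are close to the background in number. A median-of-ratios scaling gave 2251 risen and 2067 fallen genes, close to the 2249 and 2062 of TMM. With library size alone, however, risen genes made up 76.8% of all calls, against 52.2% with TMM, and all genes together had a median of 0.22 on the log2 scale in place of 0.01. In edgeR 0 of the 10 genes were lower in KO even at an unadjusted p under 0.05, while 4 were higher, and DESeq2 and limma-voom also called 0 fallen. For 4 of the 10 genes the KO and WT libraries did not overlap, against 42.6% of all genes tested.

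**Figure D1:**
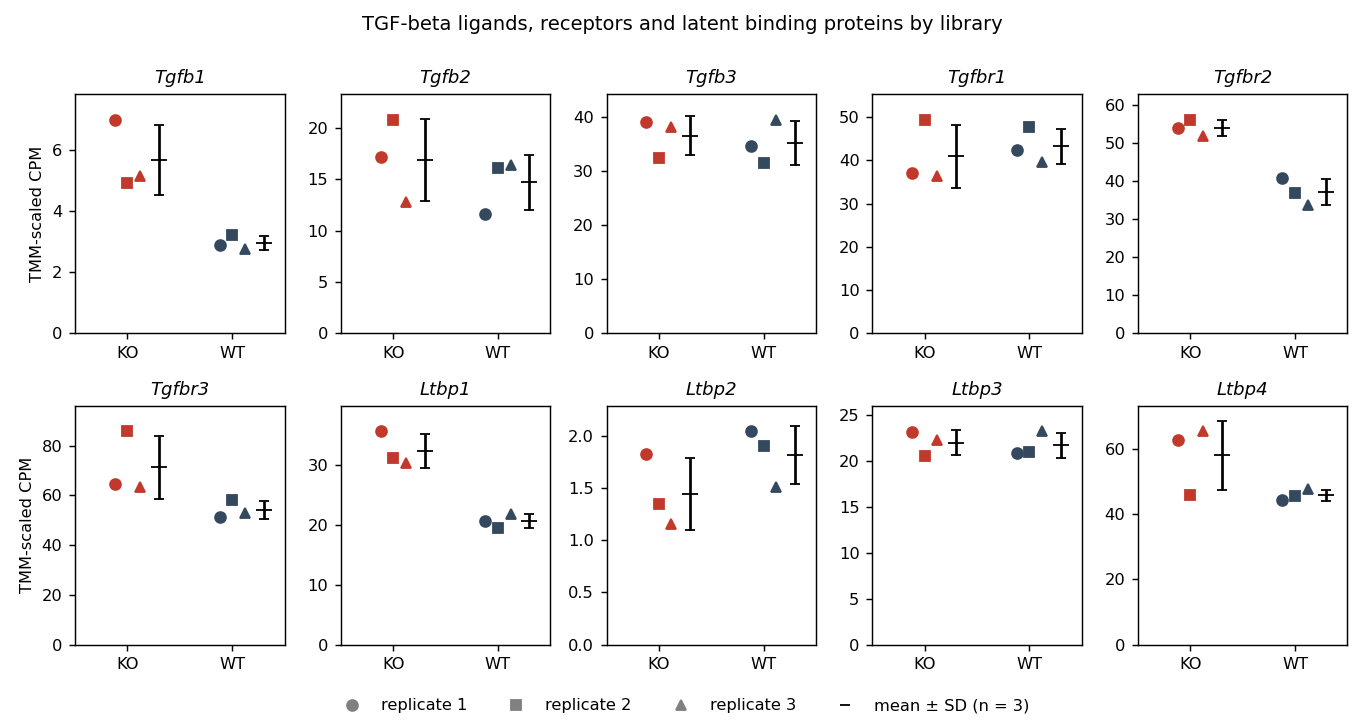
TMM-scaled CPM (y axis, from 0) of each of the 10 genes in the 3 KO libraries (red, left) and the 3 WT libraries (dark blue, right), with the shape of the point giving the replicate number and the black bar the mean ± SD of the group. The groups are apart for Tgfb1, Tgfbr2, Tgfbr3 and Ltbp1, and overlap for the other 6 genes.

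The change in Tgfb1 was the largest among the 10 genes. Tgfb1, the TGF-beta isoform that dominates in immune cells and in fibrosis, had 712, 319 and 548 reads in KO replicates 1, 2 and 3, against 236, 113 and 184 reads in WT replicates 1, 2 and 3. Scaled for depth these were 6.99, 4.91 and 5.14 CPM in KO and 2.90, 3.22 and 2.75 CPM in WT. Every KO library lay above every WT library, and KO replicate 1 lay above the other KO libraries. Tgfb1 rose 1.93-fold (log2 fold change 0.95 with an SE of 0.19, 95% interval 0.52 to 1.37, edgeR adjusted p = 0.00546). Without KO replicate 1 the log2 fold change was 0.78 (edgeR adjusted p = 0.0226). The call held in all 16 alternative settings, with adjusted p of 0.000233 to 0.0428 over them.

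The other ligands did not pass. Tgfb2, an isoform known for its role in development of heart and skeleton, stood at 17.1, 20.8 and 12.8 CPM in KO and 11.6, 16.1 and 16.4 CPM in WT. These ranges overlap, and the spread of 4.02 CPM (SD) within KO was larger than the difference between the group means of 16.9 CPM in KO and 14.7 CPM in WT. The log2 fold change was 0.20 (SE 0.20, 95% interval -0.24 to 0.64, edgeR adjusted p = 0.496), which leaves room for a rise or a small fall. Tgfb3, an isoform known from palate development and wound healing, stood at 39.1, 32.4 and 38.05 CPM in KO and 34.6, 31.5 and 39.4 CPM in WT. Its groups overlap almost fully, and its log2 fold change was 0.05 (SE 0.14, 95% interval -0.26 to 0.37, edgeR adjusted p = 0.820). That interval lies wholly under the 0.95 of Tgfb1.

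To compare genes, CPM were divided by the length in kb of the longest annotated transcript. By this measure Tgfb3 was the main ligand and Tgfb1 the scarcest, whereas with the lengths behind the deposited signal Tgfb1 (8.12 CPM per kb) stood above Tgfb2 (5.58) in KO, and below it in WT (4.22 against 4.85). On this scale Tgfb3 stood at 10.8 ± 1.05 CPM per kb in KO and 10.4 ± 1.19 in WT, Tgfb2 at 3.30 ± 0.787 in KO and 2.87 ± 0.522 in WT, and Tgfb1 at 2.21 ± 0.443 in KO and 1.15 ± 0.0929 in WT (SD, n = 3 each). Shares in a class depend on each other, since a higher level of any gene lowers the shares of the rest. Of the summed ligand level, Tgfb1 made up 15.4%, 12.3% and 12.7% in the KO libraries, against 8.26%, 9.13% and 6.72% in the WT libraries. In CPM, 42.6% of all genes tested had groups without overlap. The groups do not overlap, at 13.5% ± 1.71 in KO and 8.04% ± 1.22 in WT (two-sided exact permutation p = 0.1, the smallest that 3 libraries against 3 allow, and 0.167 after Benjamini-Hochberg adjustment over the shares of the 10 genes). Tgfb3 held 66.2% ± 4.95 in KO and 72.1% ± 3.71 in WT, with overlapping libraries. The summed ligand level was 16.3 ± 1.139 CPM per kb in KO and 14.4 ± 1.31 in WT. The size of the Tgfb1 share rests on the length used. The difference of 5.42 percentage points, KO minus WT, became 3.17 with all exons merged, 3.92 with reads not divided by length and 11.1 with the length behind the deposited signal, which sets Tgfb1 at 0.700 kb, against 2.57 kb for its longest transcript.

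**Figure D2:**
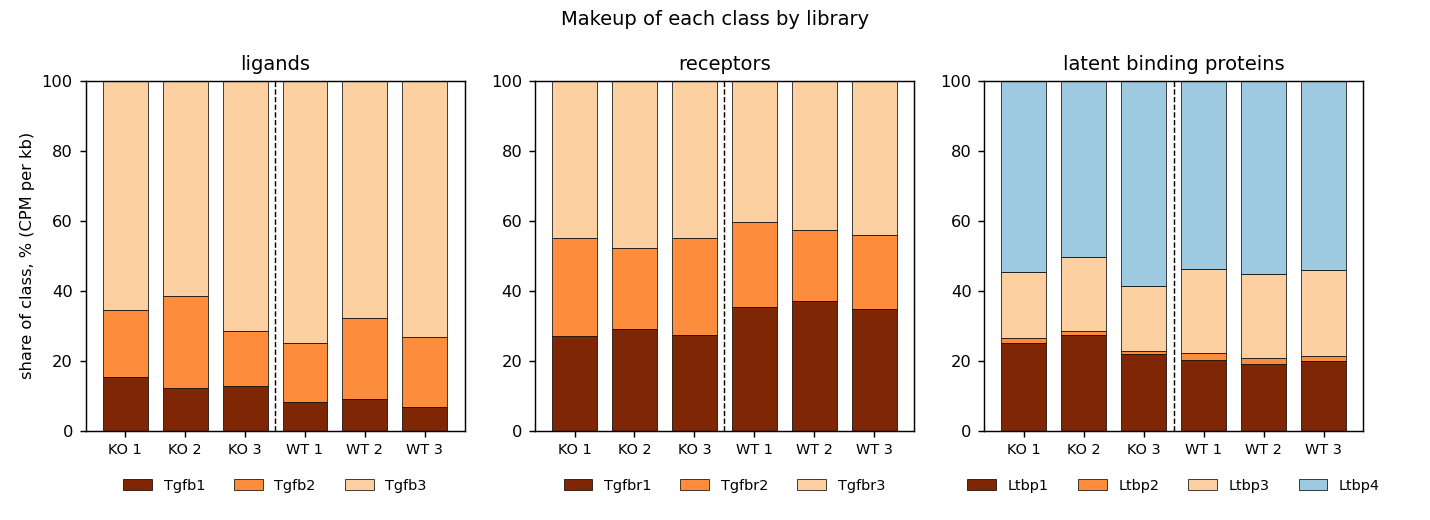
Share (y axis, %) of each gene in the summed level of its class, in CPM per kb of the longest annotated transcript, for the 3 KO libraries (left of the dashed line) and the 3 WT libraries (right). Tgfb1 takes 12.3% to 15.4% of the ligand level in KO and 6.72% to 9.13% in WT, and Tgfbr1 takes 27.1% to 29.0% of the receptor level in KO and 34.9% to 37.0% in WT. Shares in a class depend on each other.

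Among the receptors, Tgfbr2 rose. Tgfbr2 encodes the type II receptor, the kinase that binds ligand first and then activates the type I receptor. It stood at 54.0, 56.0 and 51.7 CPM in KO and 40.7, 36.9 and 33.8 CPM in WT. The libraries of each group lay close together and well apart from the other group. Tgfbr2 rose 1.45-fold (log2 fold change 0.54 with an SE of 0.13, 95% interval 0.24 to 0.83, edgeR adjusted p = 0.0147). The call rested in part on 2 WT libraries: without WT replicate 2 the adjusted p was 0.0502 and without WT replicate 3 it was 0.0544, at log2 fold changes of 0.52 and 0.47.

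Tgfbr3 and Tgfbr1 did not pass. Tgfbr3 encodes betaglycan, a co-receptor without kinase activity that presents ligand, Tgfb2 above all, to the type II receptor. It stood at 64.7, 85.9 and 63.2 CPM in KO and 51.3, 58.2 and 52.8 CPM in WT. All KO libraries were above all WT libraries, with KO replicate 2 far above the others, and the log2 fold change was 0.40 (SE 0.16, 95% interval 0.05 to 0.75, edgeR adjusted p = 0.0868). With library size alone it passed, at 0.60 (edgeR adjusted p = 0.0205). Tgfbr1, the type I receptor kinase that phosphorylates Smad2 and Smad3, stood at 37.1, 49.3 and 36.3 CPM in KO and 42.5, 47.6 and 39.6 CPM in WT. The groups overlap, and its log2 fold change of -0.08 (SE 0.16, 95% interval -0.43 to 0.27, edgeR adjusted p = 0.752) was 0.12 with library size alone.

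The shares of Tgfbr1 and Tgfbr3 in the summed receptor level did not overlap between the groups, but shares in a class depend on each other. The CPM of Tgfbr1 itself overlapped, at 40.9 ± 7.31 in KO and 43.2 ± 4.08 in WT. Among all genes tested, 42.6% had groups without overlap in CPM. Tgfbr1 made up 27.8% ± 1.00 of the summed receptor level in KO and 35.7% ± 1.09 in WT, with no overlap, whereas Tgfbr3 made up 45.8% ± 1.60 in KO and 42.4% ± 1.78 in WT, also with no overlap (two-sided exact permutation p = 0.1 for each, 0.167 adjusted over the 10 shares). Tgfbr2 held 26.4% ± 2.60 in KO and 21.9% ± 1.99 in WT, with overlapping libraries. The summed receptor level was 25.5 ± 3.59 CPM per kb in KO and 21.0 ± 1.34 in WT (SD, n = 3 each).

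Of the latent binding proteins, Ltbp1 rose. Ltbp1 binds the propeptide of TGF-beta in the secretory pathway and anchors the latent complex in the matrix. It stood at 35.7, 31.1 and 30.3 CPM in KO and 20.7, 19.4 and 21.9 CPM in WT. The lowest KO library stood well above the highest WT library. Ltbp1 rose 1.56-fold (log2 fold change 0.65 with an SE of 0.13, 95% interval 0.35 to 0.94, edgeR adjusted p = 0.00591). The call held without each library in turn, and was lost, at edgeR adjusted p = 0.105, only when WT replicate 2 and KO replicate 1 were both left out.

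Ltbp4 was the most abundant of the 4 and Ltbp2 the scarcest. Ltbp4 binds latent TGF-beta, Tgfb1 above all, and guides elastic fibre assembly, and in mice its sequence is known to modify muscular dystrophy. It stood at 62.6, 46.0 and 65.5 CPM in KO and 44.2, 45.4 and 47.7 CPM in WT. KO replicate 2 lay among the WT libraries, while KO replicates 1 and 3 lay above them. The log2 fold change was 0.34 (SE 0.16, 95% interval -0.01 to 0.69, edgeR adjusted p = 0.137). Without KO replicate 2 it was 0.50 and passed (edgeR adjusted p = 0.0141), and with library size alone it was 0.56 and passed (edgeR adjusted p = 0.0331).

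Ltbp3 did not differ detectably between the groups. Ltbp3 is a carrier of latent TGF-beta known from bone and tooth growth. It stood at 23.1, 20.5 and 22.2 CPM in KO and 20.8, 21.0 and 23.2 CPM in WT, with a log2 fold change of 0.02 (SE 0.13, 95% interval -0.26 to 0.30, edgeR adjusted p = 0.932). Ltbp2, which binds fibrillin but not latent TGF-beta, had 186, 88 and 123 reads in KO and 167, 67 and 101 in WT. Its 1.83, 1.35 and 1.15 CPM in KO overlap with the 2.05, 1.91 and 1.51 CPM in WT. The log2 fold change was -0.33 (SE 0.24, 95% interval -0.87 to 0.21, edgeR adjusted p = 0.352), the widest interval among the 10 genes and the one with the fewest reads behind it.

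Within this class Ltbp1 made up 24.8% ± 2.79 of the summed level in KO and 19.8% ± 0.664 in WT, and Ltbp3 19.6% ± 1.28 in KO and 24.2% ± 0.470 in WT. Neither pair of groups overlaps, and for each the two-sided exact permutation p was 0.1 (0.167 adjusted over the 10 shares). These shares too depend on each other: the CPM of Ltbp3 itself overlapped, at 22.0 ± 1.35 in KO and 21.7 ± 1.34 in WT. Groups without overlap in CPM were seen for 42.6% of all genes tested. Ltbp4 held 54.5% ± 4.13 in KO and 54.3% ± 0.725 in WT, while Ltbp2 held 1.09% ± 0.236 in KO and 1.73% ± 0.328 in WT, without overlap (two-sided exact permutation p = 0.1). The summed level of the class was 19.7 ± 2.35 CPM per kb in KO and 15.6 ± 0.657 in WT (SD, n = 3 each).

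**Figure D3:**
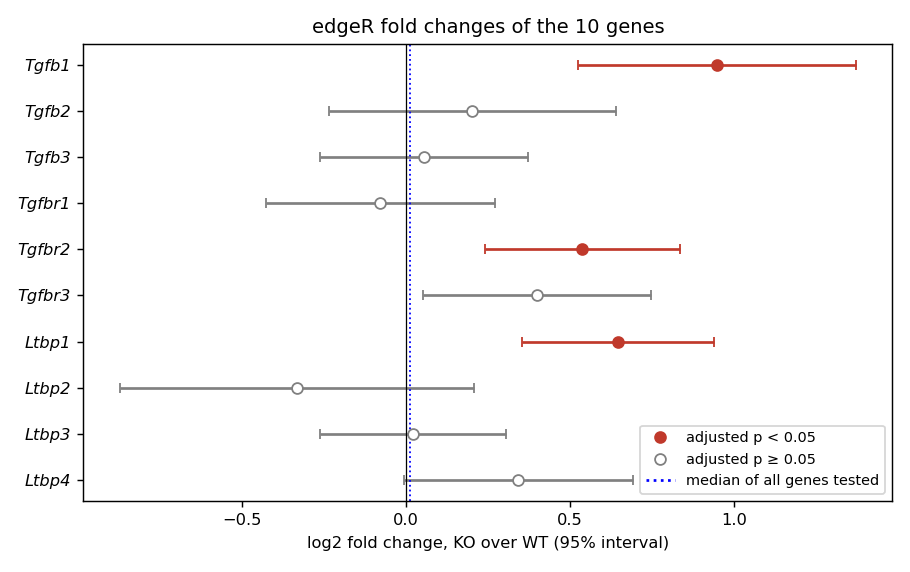
Log2 fold change of KO over WT from edgeR for each of the 10 genes (points) with its 95% interval (bars). Filled red points passed the adjusted threshold and open grey points did not. Tgfb1, Ltbp1 and Tgfbr2 stand at 0.95, 0.65 and 0.54, and the dotted line marks the median of all genes tested, 0.01.

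Across all 10 genes, levels per length ran from Tgfbr3, Tgfb3 and Ltbp4 at the top to Ltbp2 at the bottom. In KO the order was Tgfbr3 at 11.7 ± 2.08 CPM per kb, Tgfb3, Ltbp4 at 10.8 ± 1.95, Tgfbr1 at 7.11 ± 1.27, Tgfbr2 at 6.66 ± 0.267, Ltbp1 at 4.85 ± 0.435, Ltbp3 at 3.83 ± 0.236, Tgfb2, Tgfb1 and Ltbp2 at 0.214 ± 0.0509. The libraries of neighbours in this order overlapped, except between Tgfbr2 and Ltbp1, between Ltbp1 and Ltbp3, and between Tgfb1 and Ltbp2. In WT the order was Tgfb3, Tgfbr3 at 8.88 ± 0.594 CPM per kb, Ltbp4 at 8.50 ± 0.327, Tgfbr1 at 7.51 ± 0.708, Tgfbr2 at 4.59 ± 0.428, Ltbp3 at 3.78 ± 0.234, Ltbp1 at 3.10 ± 0.182, Tgfb2, Tgfb1 and Ltbp2 at 0.269 ± 0.0413 (SD, n = 3 each). There the top 4 overlapped as neighbours, as did Ltbp1 and Tgfb2, and the other neighbours did not. On this scale Ltbp1 stood above Ltbp3 in all KO libraries and below it in all WT libraries, but with the lengths behind the deposited signal the mean of Ltbp1 was above that of Ltbp3 in both groups (10.1 against 4.24 CPM per kb in KO, 6.47 against 4.18 in WT). With the lengths of the deposited table Tgfbr1 took rank 2 and Tgfb1 rank 6 in KO, in place of ranks 4 and 9.

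The promoters of the 3 genes that rose are shown so that their sequence can be read beside these values. They are the 250 bases before each start in RefSeq (build GRCm38.p6, which is not the build the authors' notes name). RefSeq starts were matched for 8 of the 10 genes. Capitals mark the Smad box (CAGAC or GTCTG on the other strand), the GC box (GGGCGG or CCGCCC) and the AP-1 site (TGANTCA, which reads the same on both strands). A Smad box can share letters with the end of an AP-1 site, but no matches overlap in the windows shown, and each is written 5′ to 3′ along the strand of its gene.
Tgfb1, chr7:25686752-25687001, + strand: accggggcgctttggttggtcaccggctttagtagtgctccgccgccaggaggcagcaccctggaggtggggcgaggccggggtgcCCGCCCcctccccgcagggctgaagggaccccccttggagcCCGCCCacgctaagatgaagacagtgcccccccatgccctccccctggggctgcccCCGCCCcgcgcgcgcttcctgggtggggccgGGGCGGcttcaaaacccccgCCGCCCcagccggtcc
Tgfbr2, chr9:116175364-116175613, - strand: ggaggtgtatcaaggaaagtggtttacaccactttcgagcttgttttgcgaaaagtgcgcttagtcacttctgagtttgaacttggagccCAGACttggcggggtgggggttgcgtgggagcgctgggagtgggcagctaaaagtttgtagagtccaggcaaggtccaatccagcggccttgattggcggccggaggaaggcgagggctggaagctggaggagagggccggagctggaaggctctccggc
Ltbp1, chr17:75005279-75005528, + strand: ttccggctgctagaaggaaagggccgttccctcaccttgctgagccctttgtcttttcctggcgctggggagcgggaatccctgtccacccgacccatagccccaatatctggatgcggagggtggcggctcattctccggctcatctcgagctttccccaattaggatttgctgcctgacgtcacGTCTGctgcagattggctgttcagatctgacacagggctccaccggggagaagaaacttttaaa
The Tgfb1 window holds 5 GC boxes and no match to the other motifs, at a GC content of 75.2%. The Tgfbr2 and Ltbp1 windows each hold 1 Smad box and no GC box, at a GC content of 58.4% and 56.8%. The bases after the Ltbp1 start shown were not found in a GENCODE M21 transcript of the gene, whereas those after the Tgfb1 and Tgfbr2 starts were. RefSeq lists a second start of Ltbp1 further downstream, whose following bases were found in such a transcript. The window of that second start holds 2 Smad boxes, so the motif count of Ltbp1 depends on the start used. Of all 32851 promoter windows of the same length, 42.2% hold a Smad box, 32.7% a GC box and 6.75% an AP-1 site. No motif was common to the 3 genes, and the AP-1 letters are not in these windows, which says nothing of the factors themselves.

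Of 17 genes that process, store and release latent TGF-beta, 16 were tested, of which 5 rose, 1 fell and 10 did not pass. Their median log2 fold change was 0.55, beside 0.01 for all genes tested, of which 13.5% rose and 12.4% fell. Thbs1, thrombospondin 1, an activator of latent TGF-beta, stood at 31.9, 51.0 and 25.3 CPM in KO and 9.22, 6.44 and 11.9 CPM in WT. It rose 3.91-fold (log2 fold change 1.97 with an SE of 0.28, edgeR adjusted p = 0.000793), and every KO library lay well above the highest WT library. Itgav, an alpha chain of integrins that bind the propeptide at its RGD motif, rose by log2 0.81 (SE 0.15), at 71.4 ± 9.71 CPM in KO and 40.7 ± 2.36 CPM in WT. Among its partner chains, Itgb6 and Itgb8 had log2 fold changes of 0.47 (SE 0.19, adjusted p = 0.0892) and 0.80 (SE 0.29, adjusted p = 0.0677), both short of the edgeR threshold. The other partners listed did not pass in edgeR either. Their log2 fold changes were 0.30 (SE 0.17) for Itgb1, 0.24 (SE 0.21) for Itgb3 and 0.00025 (SE 0.15) for Itgb5. The metalloproteases Mmp14 and Mmp2 rose by log2 0.72 (SE 0.17) and 0.64 (SE 0.18), and the Mmp2 call was lost without KO replicate 1, KO replicate 2, WT replicate 2 or WT replicate 3. Lrrc33, which tethers latent TGF-beta to macrophages, rose by 0.72 (SE 0.23). Furin, the convertase that cuts the ligand precursor, was the gene that fell, at 30.4 ± 3.91 CPM in KO and 41.7 ± 1.11 CPM in WT (SD, n = 3 each), with a log2 fold change of -0.46 (SE 0.14, edgeR adjusted p = 0.0353). The Furin call was lost when each library in turn was left out and with library size alone, and that of Lrrc33 in 7 of the 16 alternatives. Without KO replicate 1 or KO replicate 2, 3 genes of the list rose, and with library size alone 8 rose.

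Co-receptors and extracellular modulators rose in 6 of 12 cases, beside 13.5% of all genes tested. None of the list fell in edgeR, 0 were lower at an unadjusted p under 0.05, and 0 fell by DESeq2 or limma-voom. The median log2 fold change was 0.58, beside 0.01 for all genes tested. The 4 small proteoglycans of the list, which bind TGF-beta in the matrix, all rose: Fmod by log2 1.69 (SE 0.30), Dcn by 1.16 (SE 0.30), Aspn by 1.10 (SE 0.35) and Bgn by 1.09 (SE 0.21). Dcn, decorin, reached 416, 791 and 317 CPM in KO, against 265, 224 and 191 CPM in WT, with KO replicate 2 far above the rest. The Aspn call was lost in 8 of the 16 alternatives. Cd109, a co-receptor that lowers TGF-beta signalling, and Bambi, a receptor without kinase domain that does so too, rose by 1.07 (SE 0.28) and 0.86 (SE 0.25). Both calls were lost without KO replicate 1, KO replicate 2 or WT replicate 3, that of Bambi also without WT replicate 2, and that of Dcn without WT replicate 3. Eng, the co-receptor endoglin of endothelial cells, stood at 23.7 ± 1.69 CPM in KO and 23.2 ± 2.50 CPM in WT and missed the threshold (log2 fold change 0.03 with an SE of 0.14, edgeR adjusted p = 0.895), with its sign turning negative without WT replicate 1 or 2. Leaving out KO replicate 1 or WT replicate 2 left 4 risen genes in this list, leaving out KO replicate 2 left 3, and leaving out WT replicate 3 left 2.

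Of the Smad transducers and their regulators 17 genes were tested, of which 6 fell, 2 rose and 9 did not pass. Their median log2 fold change was -0.20, beside 0.01 for all genes tested, of which 12.4% fell and 13.5% rose. Smad3, a transducer directly phosphorylated by Tgfbr1, stood at 73.8, 49.6 and 95.8 CPM in KO and 146, 173 and 122 CPM in WT, with no overlap. It fell to 0.497 of its WT level (log2 fold change -1.01 with an SE of 0.23, edgeR adjusted p = 0.00982). Zfyve9, also called SARA, which holds Smad2 and Smad3 at the receptor, fell with a log2 fold change of -0.71 (SE 0.14), and so did Ppm1a, a phosphatase known to act on both Smads, at -0.72 (SE 0.15). Strap, which holds the inhibitory Smad7 at the receptor, fell at -0.49 (SE 0.14), and Smad4, the common partner, at -0.43 (SE 0.14, edgeR adjusted p = 0.0412). The co-repressors Tgif1 and Ski rose by 0.65 (SE 0.16) and 0.52 (SE 0.13), calls that were both lost without WT replicate 1, and that of Ski also without KO replicate 1. Smad2 stood at 11.2 ± 0.780 CPM in KO and 12.6 ± 0.170 CPM in WT and missed the threshold (log2 fold change -0.16 with an SE of 0.13, edgeR adjusted p = 0.410), nor did Smad7, itself induced by TGF-beta, at 0.34 (SE 0.16, adjusted p = 0.141). The calls of Smad4 and Strap were lost in 9 and 7 of the 16 alternatives. With library size alone 3 genes of the list fell and Smad2 had a log2 fold change of 0.047. The list had 3 fallen genes without KO replicate 1, KO replicate 3, WT replicate 1 or WT replicate 2, and 4 without WT replicate 3. Leaving out WT replicate 1 left 0 risen genes, and leaving out KO replicate 1 left 1.

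Genes known to be induced by TGF-beta in fibroblasts and other cells rose in 8 of 20 cases, beside 13.5% of all genes tested. None of the list fell in edgeR, 1 was lower at an unadjusted p under 0.05, and 0 fell by DESeq2 or limma-voom. The median log2 fold change was 0.65, beside 0.01 for all genes tested. Tgfbi, named for its induction, stood at 49.7, 49.8 and 38.1 CPM in KO and 20.7, 16.2 and 21.1 CPM in WT and rose 2.37-fold (log2 fold change 1.24 with an SE of 0.16, edgeR adjusted p = 0.000541). Ctgf, connective tissue growth factor, rose 2.38-fold (log2 fold change 1.25 with an SE of 0.21). Postn, periostin, and Itga11, a collagen-binding integrin chain, rose by log2 1.63 (SE 0.25) and 1.16 (SE 0.20). Timp1, a protease inhibitor that inflammatory signals also induce, rose by log2 3.40 (SE 0.54), to 11.6 ± 6.13 CPM in KO, against 1.07 ± 0.817 CPM in WT. Col1a1, the main fibrillar collagen chain of scar, had 313, 172 and 134 CPM in KO and 161, 149 and 103 CPM in WT. Its groups overlap and it missed the threshold (log2 fold change 0.58 with an SE of 0.29, edgeR adjusted p = 0.162). Without KO replicate 3, 13 genes of the list rose, and with any other library left out 7 or 8.

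**Figure D4:**
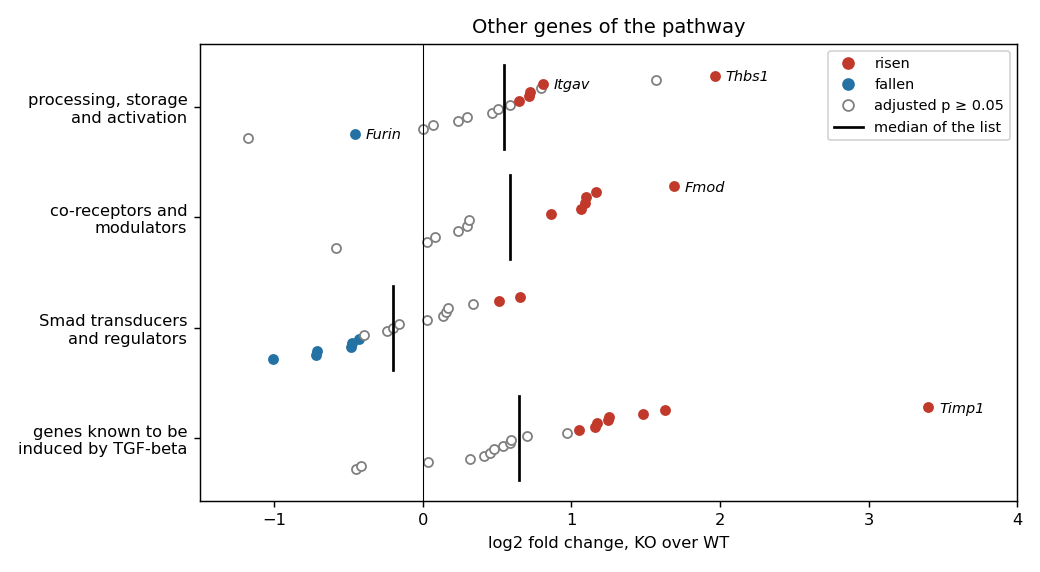
Log2 fold change of KO over WT (x axis) of each tested gene of 4 lists (rows, spread vertically by rank), filled red where it rose, filled blue where it fell and open grey where it did not pass. Black bars mark the list medians of 0.55, 0.58, -0.20 and 0.65, from top to bottom.

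Markers of other cell types differed between the same libraries, and their part in the changes above was not tested. In bulk tissue a change in the number of cells of a type cannot be told from a change in RNA per cell. Among all genes tested 13.5% rose and 12.4% fell, with a median log2 fold change of 0.01. Macrophage and leukocyte markers rose in 8 of 10 cases (median log2 fold change 1.36). They summed to 410, 382 and 271 CPM in KO replicates 1, 2 and 3, against 190, 175 and 85.1 CPM in WT. Their first marker Cd68 rose by log2 1.51 (SE 0.36). Tgfb1 was highest in KO replicate 1, which was also the highest for the sum of these markers, but not for each marker. Cd68 was higher in KO replicate 1 than in KO replicate 2, at 13.1 and 8.57 CPM. Lyz2, the largest part of the sum, was lower in KO replicate 1 than in KO replicate 2, at 146 and 163 CPM. KO replicates 2 and 3 lay close together in Tgfb1, at 4.91 and 5.14 CPM, with marker sums of 382 and 271 CPM. Fibroblast markers rose in 7 of 10 cases (median 0.58) and summed to 1185, 1243 and 1198 CPM in KO, against 1052, 821 and 783 CPM in WT. Most of each fibroblast sum was 1 gene, Gsn, at 823, 807 and 880 CPM in KO and 779, 586 and 558 CPM in WT. Gsn itself did not pass (edgeR adjusted p = 0.146). Their first marker Pdgfra rose by 0.66 (SE 0.22). Risen fibroblast markers numbered 2 without KO replicate 1, KO replicate 2, WT replicate 2 or WT replicate 3.

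Tendon markers rose in 6 of 8 cases, beside 13.5% of all genes tested, and summed to 196 to 407 CPM in KO and 94.9 to 163 CPM in WT. The largest part of the tendon sums was Thbs4, at 257 ± 84.9 CPM in KO and 95.3 ± 32.7 CPM in WT (SD, n = 3 each). Adipocyte markers rose in 6 of 6 cases, at 57.2 to 74.3 CPM in KO and 13.1 to 43.6 CPM in WT. Risen tendon markers numbered 2 without WT replicate 3, and risen adipocyte markers 2 without KO replicate 2 and 3 without WT replicate 1. Of the endothelial markers 0 of 10 passed in edgeR, 3 were lower at an unadjusted p under 0.05, and DESeq2 called 1 and limma-voom 0, with sums of 275 to 351 CPM in KO and 374 to 422 CPM in WT. Mural cell markers rose in 2 and fell in 1 of 10 cases, at 900 to 999 CPM in KO and 780 to 880 CPM in WT. The largest difference within the mural sums was Mustn1, at 131 ± 36.3 CPM in KO and 50.8 ± 19.4 CPM in WT. Of the 10 mural genes 5 were higher and 5 lower in KO, with a median log2 fold change of 0.005. Of the satellite cell markers 0 of 8 passed in edgeR, DESeq2 or limma-voom, and 0 had an unadjusted edgeR p under 0.05, at 29.3 to 36.1 CPM in KO and 30.0 to 35.9 CPM in WT. Schwann cell markers rose in 1 of 7 cases, at 45.1 to 56.0 CPM in KO and 30.1 to 40.6 CPM in WT. Lymphocyte markers were scarce, at 0.845 to 1.66 CPM in KO and 0.142 to 0.898 CPM in WT, with 3 of 6 tested and 1 risen. Fibre markers fell in 2 of 10 cases in edgeR, 6 by DESeq2 and 3 by limma-voom. These lists of few calls moved with single libraries: 0 fibre markers fell without KO replicate 1 or WT replicate 1 and 4 without KO replicate 3, 2 endothelial markers fell without KO replicate 3, and 1 satellite cell marker rose without it. No gene of these marker lists had 0 reads in every library, while the T cell genes Cd3e and Cd3g and the B cell gene Cd79a had 0 reads in at least 1 library.

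**Figure D5:**
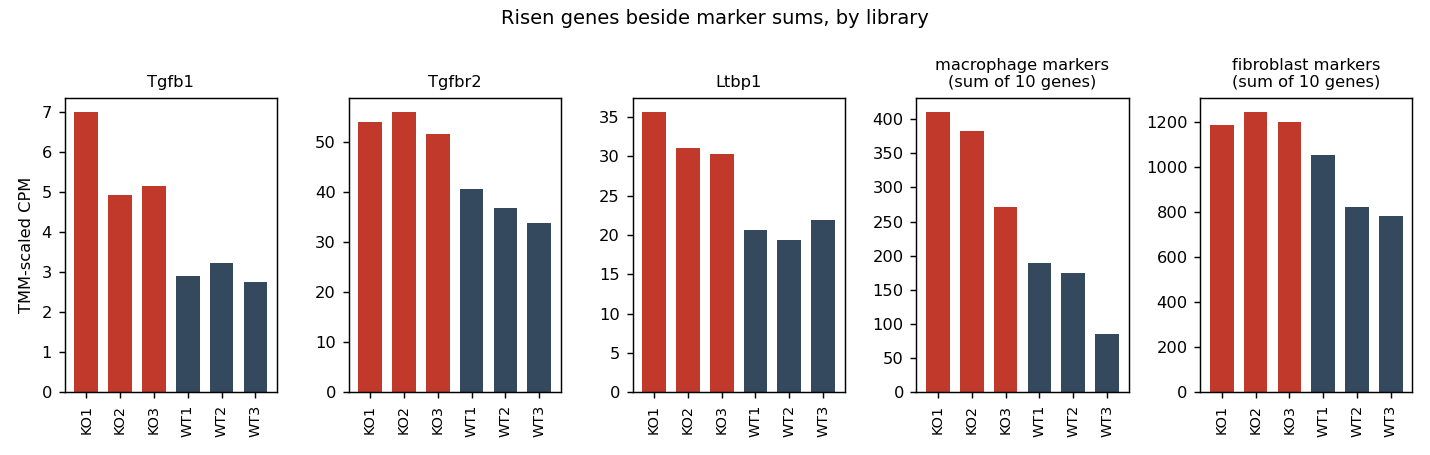
TMM-scaled CPM (y axes, from 0) of Tgfb1, Tgfbr2 and Ltbp1 and of the summed macrophage and fibroblast markers (10 genes each) in each of the 3 KO libraries (red) and 3 WT libraries (dark blue). All 5 panels have every KO library above every WT library, and the order of the KO libraries differs between panels. The fibroblast sum is mostly Gsn, which did not pass.

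The profiles of the ligands over the 6 libraries were compared with those of 11027 other genes, as the root mean square difference in log2 CPM after each gene was centred on its own mean. Profiles this close have nearly the same fold change by selection, so whether these genes passed adds nothing to the result of the ligand. The closest to Tgfb1 were Mob3a (0.0489) and Sh3pxd2b (0.0545), which rose by log2 0.89 (SE 0.18) and 0.91 (SE 0.17). The closest to Tgfb2 were 5830428H23Rik (0.0622) and Gm17312 (0.0904), and to Tgfb3 Taz (0.0298) and Stk11ip (0.0367), none of which passed. In the authors' deposited table the log2 fold changes of Tgfb1, Tgfbr2 and Ltbp1 were 0.90, 0.52 and 0.63, with adjusted p of 0.000428, 0.00225 and 0.000327, and no other of the 10 genes had an adjusted p under 0.05.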

How the data were processed

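The authors deposited raw read counts per gene and library, per the file headers. Further deposited columns give a signal, which is the normalized value per kb of gene according to the headers. The authors' log2 fold change, p-value and adjusted p-value are deposited beside them, from a test that is not named in those headers. The labels' protocols describe total RNA depleted of ribosomal RNA and a stranded library kit. TopHat2 2.0.14, Bowtie, HTSeq 0.6.1, bcl2fastq 2.17.1.14 and the build mm9 are named, without roles, per the submitters' processing notes.

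The counts were tested in R 4.3.3 with edgeR 4.0.16 by its quasi-likelihood test, without covariates and with Benjamini-Hochberg adjustment, after filterByExpr (at least 10 reads, 15 over all libraries) and TMM scaling. Fold changes are KO over WT. The SE is the log2 fold change over the square root of F, and 95% intervals use the total degrees of freedom of the fit. CPM use the scaled totals of the genes kept. Alternatives used DESeq2 1.42.0 and limma 3.58.1 (voom) among others. Transcript lengths came from GENCODE M21 (GRCm38), which is not the authors' build, and the longest transcript and both other lengths were chosen after seeing the data. The deposited signal served only to obtain the length behind it. Figures were drawn with matplotlib 3.10.9.

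Simulated counts for KO over WT had 200 changed genes, drawn from those with a mean of at least 1 CPM, and 16192 genes were tested. There edgeR recovered 75% of the changes of log2 1 and 99% of the changes of log2 2, and called 17 unchanged genes. The real counts gave 4311 calls among 16628 genes, far more than 200, so these rates need not carry over to them. Whether replicates are separate animals is not in the labels, and p-values therefore cover only the spread of these samples, which may be technical. The named genes are the 10 genes, both deleted genes, the first marker of a list where its level is given, and the 2 closest profiles per ligand. Up to 6 genes with the lowest p per pathway list are also named, with 14 others of these lists fixed by name. Lyz2, Gsn and Thbs4 are named as the largest parts of their marker sums, and Mustn1 for the largest difference within its sum. Itgb1, Itgb3 and Itgb5 are named as further partners of Itgav. Not every named gene is reported here. The 10 genes and all lists were chosen with earlier results of these data known. Of 18 Smad genes listed, 17 were found. Plg, at 0 to 6 reads per library, was not tested.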

Additional observations from a re-analysis of the deposited data

How the results depend on the processing

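Of 16 alternative settings, 6 leave out 1 library each. Across these 6, 2 to 4 of the 10 genes rose, 0 fell, and 1391 to 2321 of all genes rose and 1168 to 2189 fell. The lowest of these were without KO replicate 1, and the count of fallen genes was 1234 without WT replicate 1 and that of risen genes 1477 without WT replicate 3. With library size alone 5 of the 10 genes rose, and 3418 of all genes rose and 1030 fell. Without both KO replicate 1 and WT replicate 2, 1 of the 10 genes rose, Tgfb1, and 1113 of all genes rose and 977 fell. In the other 8 settings the same 3 genes of the 10 rose. Signs turned only for genes near 0. With 1 library left out the log2 fold change ran from -0.027 to 0.15 for Tgfb3, from -0.22 to 0.027 for Tgfbr1, from -0.012 to 0.084 for Ltbp3 and from -0.027 to 0.12 for Eng. Without both KO replicate 1 and WT replicate 2 it was -0.074 for Tgfb3, 0.058 for Tgfbr1, -0.046 for Ltbp3 and -0.026 for Eng. With library size alone it was 0.12 for Tgfbr1 and 0.047 for Smad2. The 33 other genes followed through the settings gave 528 values, of which 451 kept direction and call, 64 lost the call, 9 gained it and 4 changed sign; the causes were not tested.

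Same-numbered KO and WT libraries deviated together only weakly (correlations over genes of 0.015 to 0.063), so the numbers were not taken to pair the samples, although 5 of 6 libraries were closest to their own number. With the replicate block 3 of the 10 genes rose and 0 fell, 2457 of all genes rose and 2236 fell, and 9 genes of the processing and activation list rose. The fewest reads among the 10 genes were those of Ltbp2, at 67 to 186 per library, and Tgfb1, at 113 to 712, whose call held in all 16 settings.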

Other observations

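The lengths by which the authors divided their signal were recovered by comparing it with the counts. For 54.9% of 26186 genes they lie within 1% of the median length of the gene's transcripts in GENCODE M21, and for 30.2% within 1% of the length of all exons merged. For Tgfb1, Tgfbr1, Tgfbr3 and Ltbp1 they are 0.700, 1.83, 2.11 and 3.20 kb, while the longest annotated transcripts measure 2.57, 5.76, 6.09 and 6.67 kb. For Tgfb3, with 1 annotated transcript, the deposited length is 3.38 kb. Levels set between genes from the deposited signal therefore differ from those per longest transcript, whereas the comparison of KO with WT within a gene does not depend on the length.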
